A study of Homo sapiens with 4 samples.

Results

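Transcripts of 60 genes that work in mitosis, at the kinetochore and on the spindle were followed in A549 cells with and without a guide against UHRF1. The genes were listed by symbol and found in the deposited count table by their Ensembl identifiers through GENCODE 29. All 60 were found among the 58735 rows of the table, and all 60 had enough counts to be tested, among 17030 genes tested in all. The list did not use any measured value of these libraries, but it was chosen with earlier results of these data known. A549 is a human lung adenocarcinoma cell line. RNA sequencing was done on 4 libraries, 2 of cells with a non-targeting control guide (sgNTC, called controls here) and 2 of cells with a guide against UHRF1 (sgUHRF1, called knockouts here). UHRF1 is a nuclear protein that binds hemimethylated DNA and brings the maintenance DNA methyltransferase to it. In both groups the guide was delivered by lentivirus in the vector lentiCRISPRv2-hygro, which also encodes Cas9, and the cells were selected with hygromycin and grown in DMEM with 10% serum. Whether the cells were pools or clones, and the time between infection and harvest, were not stated in any source used here. The labels number the libraries of a group without naming separate cultures. The p-values therefore reflect library-to-library spread, which could be technical.

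In mitosis, CDK1 bound to cyclin B drives entry, after CDC25 phosphatases have removed the inhibitory phosphates that WEE1 and PKMYT1 place on it. Kinetochores assemble on centromeric chromatin marked by the histone variant CENPA and bind microtubules through the NDC80 complex, and the spindle checkpoint holds back the anaphase-promoting complex until every kinetochore is attached. The complex with its activator CDC20 then marks securin and cyclin B for destruction, which frees separase to cut cohesin. Most of these genes are transcribed mainly in G2 and mitosis, and their promoters are known targets of the MuvB complex with MYBL2 and FOXM1. Their RNA in a population of cells can therefore vary with the share of cells in those phases, which was not measured here. In bulk RNA, fewer cells in a phase and less RNA per cell cannot be told apart.

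The libraries held between 18604598 and 23977168 counts, and the knockouts had more genes detected (28486 and 29341) than the controls (24600 and 24504). UHRF1 itself (ENSG00000276043, chr19:4903080-4962154 in GRCh38) stood at 97.6 and 98.9 CPM (counts scaled to a library of 1000000, with trimmed-mean scaling) in the controls and at 39.1 and 40.2 CPM in the knockouts (log2 fold change -1.31, SE 0.055, edgeR adjusted p = 3.92e-20). The groups did not overlap, and transcript of the targeted gene remained. The knockouts had a lower share of mitochondrial counts (7.29% and 7.26% against 8.33% and 8.02%) and of cytosolic ribosomal protein counts (3.28% in both against 4.42% and 4.28%). Of 9 epithelial and lung markers 7 had enough counts to be tested. In the knockouts 4 of these were lower (KRT8, KRT18, KRT19 and CDH1) and 2 higher, EPCAM (log2 fold change 2.16) and SFTPB (4.83). Among all genes tested, 30.1% were lower and 32% higher (edgeR). The 2 that rose were low in the controls, at a mean of 2.21 CPM (EPCAM) and 0.054 CPM (SFTPB). The summed level of the 9 markers was 3634 to 3825 CPM in the controls and 2884 to 2915 CPM in the knockouts. The keratins KRT8 and KRT18 were abundant in all 4 libraries, though lower in the knockouts (log2 fold changes -0.34 and -0.43). NKX2-1, a defining factor of lung epithelium, was at 0 in all 4. Of 14 markers of other cell types 5 had enough counts to be tested, and of these 4 were higher and 0 lower (edgeR, where 32% of all genes tested were higher), with a summed level of 4.43 to 4.96 CPM in the controls and 41.3 to 42.8 CPM in the knockouts, most of it PECAM1. The T cell marker CD3E was at 0 in all 4 libraries. The part of these differences in the results below was not tested.

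The RNA of the mitosis genes fell almost throughout. In the knockouts 58 of the 60 genes were lower, 1 was higher (CDC25B) and 1 did not pass the test (PRC1), at an edgeR adjusted p under 0.05 over all genes tested. Among all genes tested, 30.1% were lower and 32% were higher by the same rule. A fall of at least 1.5-fold was found for 46 of the 60 genes (76.7%), against 8.34% of all genes tested, and of at least 2-fold for 7 (11.7%), against 2.54%. The 60 genes together took 0.729% and 0.750% of the counts in the controls and 0.502% and 0.506% in the knockouts. Their summed level was 7606 and 7767 CPM in the controls and 4844 and 4884 CPM in the knockouts, which is 63.3% of the control mean.

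The fall was of a similar size across most of the genes. The median log2 fold change was -0.70, the middle of the list lay between -0.89 (lower quartile) and -0.59 (upper quartile), and the median gene was at 61.7% of its control level. The median over all genes tested was 0.02, and over the 11687 tested genes within the same range of control CPM it was -0.09, with 40.6% of them lower. In 58 of the genes both knockout libraries lay below both controls, against 38.4% of all genes tested, and in 1 both lay above, against 41.6%. Groups without overlap were thus common among all genes. These shares, and the 30.1% of all genes tested that were lower, are the ones to set beside each count by role below. By role, the median log2 fold change was -0.88 for chromosome condensation and -0.79 for the role of CDC20, UBE2C, securin and separase. It was -0.78 for kinases, cyclins and CDC25 phosphatases and -0.77 for the checkpoint. For cytokinesis it was -0.70, for the outer kinetochore -0.69, and for motors and spindle assembly -0.68. The inner kinetochore with CENPA (labelled inner centromere proteins in the figures) also had -0.68. The chromosomal passenger complex had -0.58 and the pair of transcription factors -0.51. Differences between these roles were not tested, and their ranges overlapped.

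**Figure D1:**
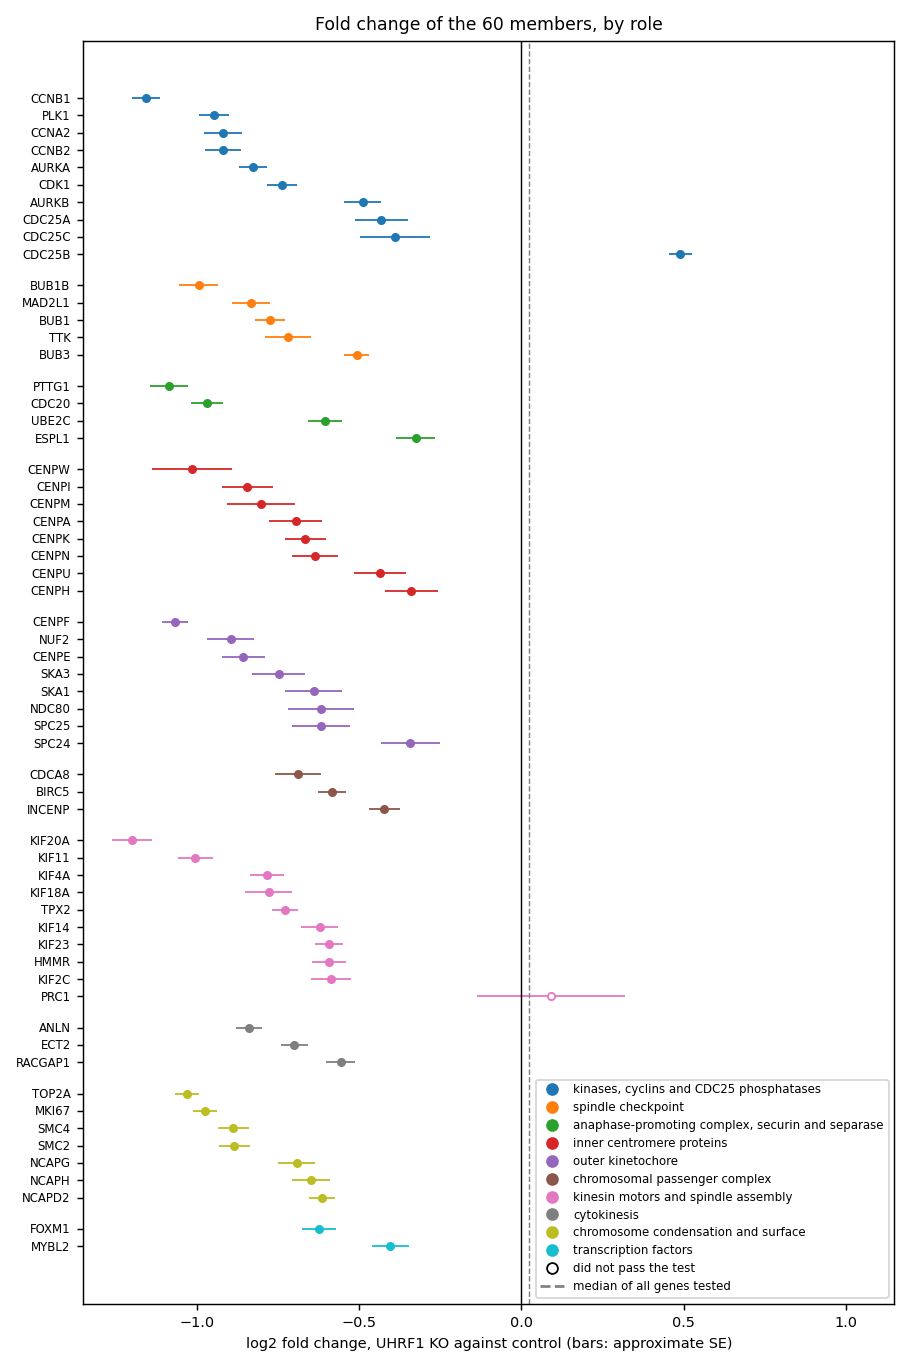
Log2 fold change of each of the 60 genes in the knockouts against the controls (horizontal axis), with bars of the approximate SE, grouped and coloured by role. The points of 58 genes lie left of 0, CDC25B lies at 0.49, and PRC1 (open point) did not pass the test. The dashed line is the median of all genes tested.

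**Figure D2:**
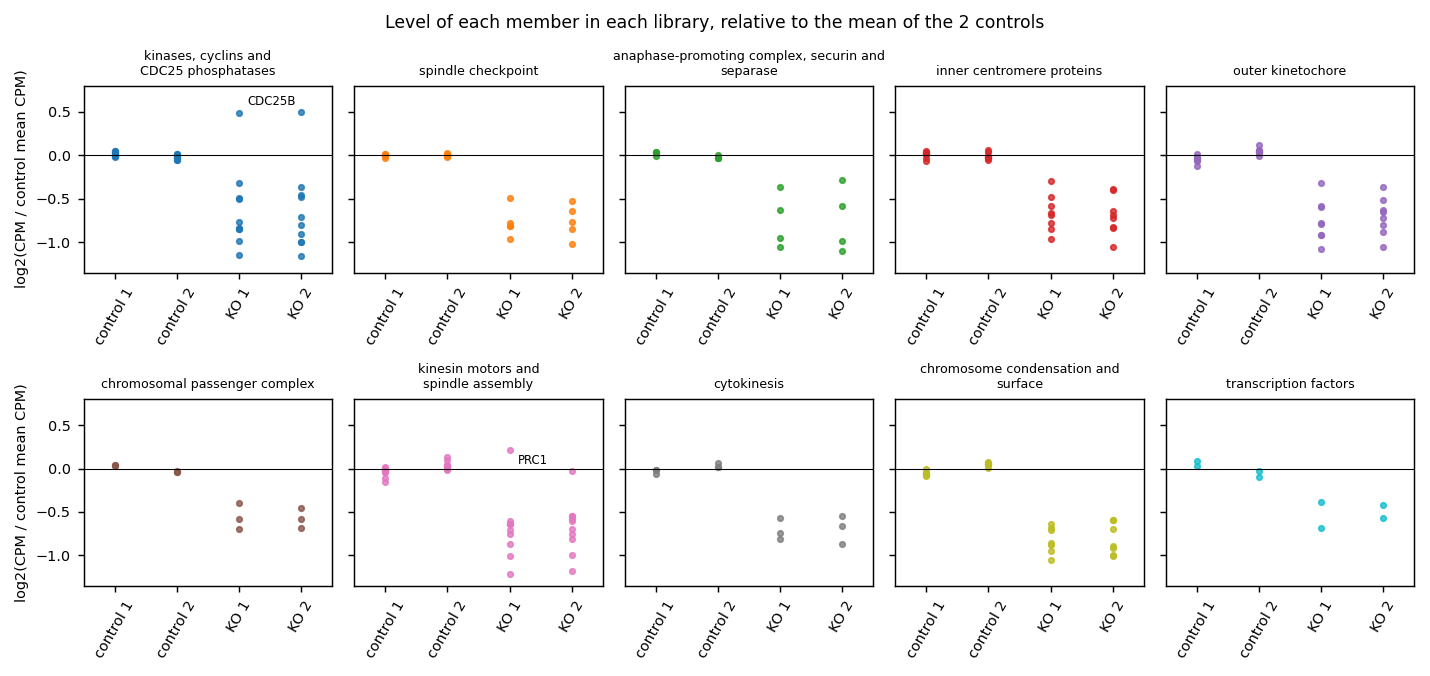
Level of each gene in each of the 4 libraries as log2 of its CPM over the mean CPM of the 2 controls, with 1 panel per role and 1 point per gene. In every panel the points of both knockout libraries lie below those of the controls except for CDC25B and PRC1.

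Promoter sequence is shown here for a few members because most of these genes share short promoter words. The list was not chosen by these words, but list and words were both chosen with earlier results of these data known. The RefSeq promoter table for GRCh38.p14 gives 250 bases before and 50 bases after the start of a gene, and 50 of the 60 genes had an entry. AURKA, BUB3, TTK, UBE2C, CENPH, CENPM, BIRC5, TPX2, RACGAP1 and FOXM1 had none. Words were searched on both strands. The cell cycle genes homology region (CHR, TTTGAA or TTCGAA) is known to bind the MuvB complex, the CCAAT box (CCAAT) binds NF-Y, and E2F-like words (GCGGGAA, GCGCGAAA or TTTGGCGC) are of the kind that E2F factors bind. The 5 stretches below are the 100 bases before the start, read 5′ to 3′ on the strand of the gene, with all matches in capitals. They were taken from the 10 genes in which this stretch holds no exon base in GENCODE 29: 3 genes with large falls (KIF11, MKI67, CENPF) and 2 with small ones (CDC25A, ESPL1).

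KIF11: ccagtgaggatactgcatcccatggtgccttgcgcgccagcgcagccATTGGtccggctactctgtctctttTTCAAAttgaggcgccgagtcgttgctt
MKI67: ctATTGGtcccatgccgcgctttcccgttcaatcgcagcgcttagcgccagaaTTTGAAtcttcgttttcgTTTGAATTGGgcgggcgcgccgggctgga
CENPF: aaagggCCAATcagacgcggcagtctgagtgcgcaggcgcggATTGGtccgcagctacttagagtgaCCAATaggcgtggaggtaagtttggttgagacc
CDC25A: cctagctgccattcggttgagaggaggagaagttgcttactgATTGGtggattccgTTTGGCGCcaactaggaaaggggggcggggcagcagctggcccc
ESPL1: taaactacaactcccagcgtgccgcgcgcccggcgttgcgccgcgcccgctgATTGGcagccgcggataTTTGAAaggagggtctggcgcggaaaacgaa

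The stretches lie at chr10:92593030-92593129 (forward strand) for KIF11, chr10:128126424-128126523 (reverse strand) for MKI67, chr1:214603095-214603194 (forward strand) for CENPF, chr3:48188418-48188517 (reverse strand) for CDC25A and chr12:53268199-53268298 (forward strand) for ESPL1. In KIF11 the capitals mark a CCAAT box and a CHR, both on the opposite strand, that begin 53 and 28 bases before the start. MKI67 has 2 CHR words, and the nearer of them shares 1 base with a CCAAT box on the opposite strand. CENPF has 3 CCAAT boxes in this stretch, and its CHR lies after the start, outside it. CDC25A has a CCAAT box and an E2F-like word and no CHR. ESPL1 has a CCAAT box and a CHR that begin 48 and 31 bases before the start, much as in KIF11, although the log2 fold changes of these genes were -0.33 and -1.01.

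Over the whole 300-base window a CHR was found in 34 of the 50 genes (68%), against 16.6% of all 27305 promoters and 11.3% of the 10759 promoters of tested protein-coding genes. A CCAAT box was found in 35 (70%), against 35.7% and 36.2%, and both words in 25 (50%), against 6.58% and 4.77%. E2F-like words were found in 10 (20%), against 7.58% and 11.6%. In the 250 bases before the start alone, a CHR was found in 46% of the listed genes and 14.6% of all promoters, and a CCAAT box in 70% and 33%. For 39 of the 50 genes the bases just after the RefSeq start were found in a GENCODE 29 transcript of the same gene. The 34 genes with a CHR had a median log2 fold change of -0.76, and the 16 without one had -0.62, with ranges that overlapped widely. With and without a CCAAT box the medians were -0.70 and -0.75, and with and without an E2F-like word -0.63 (10 genes) and -0.81 (40 genes). KIF20A and CCNB1, which fell most, had CCAAT boxes and no CHR word in the window. CDC25B, which rose, had neither of these and 2 E2F-like words. PRC1, which did not pass the test, had a CHR and a CCAAT box. A match is a description of letters and not a measured binding site.

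**Figure D3:**
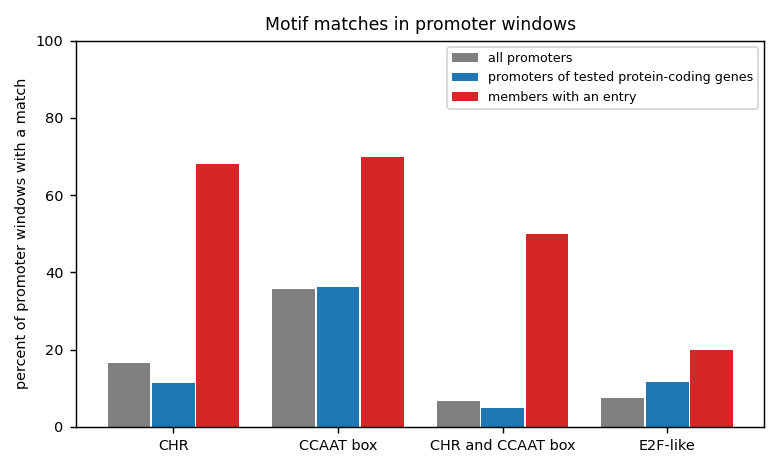
Percent of 300-base promoter windows (vertical axis) that hold a CHR, a CCAAT box, both or an E2F-like word, for all promoters of the reference table, for promoters of tested protein-coding genes and for the 50 listed genes with an entry. The listed genes stand at 68% for CHR, 70% for CCAAT, 50% for both and 20% for E2F-like words.

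Of the 10 kinases, cyclins and CDC25 phosphatases, 9 fell and 1 rose. CCNB1, which encodes cyclin B1 (ENSG00000134057, chr5:69167010-69178245), stood at 255 and 238 CPM in the controls and 111 and 109.9 CPM in the knockouts (log2 fold change -1.16, SE 0.043, edgeR adjusted p = 1.34e-21). The groups did not overlap, and both knockouts were at less than 50% of either control. PLK1, the Polo-like kinase that acts in centrosome maturation, spindle assembly and cytokinesis (ENSG00000166851, chr16:23677656-23690367), stood at 149 and 148 CPM in the controls and 74.7 and 78.8 CPM in the knockouts (log2 fold change -0.95, SE 0.047, edgeR adjusted p = 3.34e-18). AURKA, the Aurora kinase of the centrosome and spindle poles (ENSG00000087586, chr20:56369389-56392337), stood at 183 and 187 CPM in the controls and 103 and 106 CPM in the knockouts (log2 fold change -0.83, SE 0.043, edgeR adjusted p = 1.6e-17). The knockouts were lower than the controls for both kinases, with no overlap. CCNA2 (cyclin A2, log2 fold change -0.92) and CCNB2 (cyclin B2, -0.92) fell to a similar degree, and CDK1, their catalytic partner, changed by -0.74. AURKB, the Aurora kinase of the chromosomal passenger complex, changed by -0.49.

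CDC25B, the CDC25 phosphatase known to act at the centrosome at the onset of mitosis, was the single gene of the list that rose. Its level (ENSG00000101224, chr20:3786772-3806121) was 528 and 489 CPM in the controls and 711 and 717 CPM in the knockouts (log2 fold change 0.49, SE 0.035, edgeR adjusted p = 7.39e-14). Both knockouts lay above both controls. With trends of GC content and length removed and the libraries recentred on their mean, a scaling that moves the median of all genes by -0.35, the log2 fold change of CDC25B was 0.01 (edgeR adjusted p = 0.759), which is 0.34 above that median. The other CDC25 genes fell: CDC25A, which also acts at entry into S phase, from 29.3 and 29.8 to 20.8 and 22.9 CPM (log2 fold change -0.43), and CDC25C from 15.5 in both to 12.4 and 11.3 CPM (-0.39). In the DESeq2 Wald test the fall of CDC25C did not pass (DESeq2 adjusted p = 0.0663). CDC25B made up 91.2% and 90.5% of the summed CPM of the 3 CDC25 genes in the controls and 94.9% in both knockouts. Because CDC25B is abundant, the summed CPM of the 10 genes of this role was 83.4% of control, while their median gene was at 58.2%.

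All 5 checkpoint genes fell, and none of their groups overlapped (38.4% of all genes tested were lower without overlap). BUB1, a kinase of the kinetochore that recruits the other checkpoint proteins (ENSG00000169679, chr2:110637698-110678114), stood at 141 and 143 CPM in the controls and 82.8 and 82.9 CPM in the knockouts (log2 fold change -0.77, SE 0.046, edgeR adjusted p = 4.14e-16). BUB1B, which encodes BUBR1 of the mitotic checkpoint complex (ENSG00000156970, chr15:40161023-40221136), stood at 73.4 and 72.4 CPM in the controls and 37.3 and 35.9 CPM in the knockouts (log2 fold change -0.99, SE 0.059, edgeR adjusted p = 5.86e-16). MAD2L1, the MAD2 protein that holds CDC20 in that complex (ENSG00000164109, chr4:120055608-120067074), stood at 69.5 and 72.1 CPM in the controls and 40.1 and 39.4 CPM in the knockouts (log2 fold change -0.83, SE 0.059, edgeR adjusted p = 4.75e-14). For each of these genes the knockouts stood well below the controls, and the libraries of a group lay close together. TTK, the MPS1 kinase at the top of the checkpoint, changed by -0.72. BUB3, a WD-repeat protein that docks BUB1 and BUBR1, fell least (-0.51) and was the most abundant of the 5 in CPM.

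The 4 genes around the anaphase-promoting complex also fell. CDC20, its activator and the target of the checkpoint (ENSG00000117399, chr1:43358955-43363203), stood at 126 and 120.4 CPM in the controls and 63.7 and 62.2 CPM in the knockouts (log2 fold change -0.97, SE 0.049, edgeR adjusted p = 8.29e-18). PTTG1, which encodes securin, the inhibitor of separase (ENSG00000164611, chr5:160421822-160428744), stood at 78.6 and 79.02 CPM in the controls and 37.8 and 36.6 CPM in the knockouts (log2 fold change -1.09, SE 0.058, edgeR adjusted p = 3.08e-17). UBE2C, the ubiquitin-conjugating enzyme of the complex (ENSG00000175063, chr20:45812576-45816957), stood at 95.7 and 91.4 CPM in the controls and 60.3 and 62.5 CPM in the knockouts (log2 fold change -0.61, SE 0.052, edgeR adjusted p = 5.97e-12). In each the knockouts were lower without overlap. ESPL1, which encodes separase itself, stood at 63.04 and 60.05 CPM in the controls and 47.6 and 50.5 CPM in the knockouts and had the smallest fall of the whole list (log2 fold change -0.33). The CPM of securin over that of separase was 5.51 and 5.81 in the controls and 3.50 and 3.20 in the knockouts. The CPM of CDC20 over that of BUB1B, by contrast, overlapped between the groups (3.76 and 3.65 against 3.75 and 3.80). Neither ratio was tested. How often such a ratio separates the groups over all pairs of genes was not computed, for these ratios or for those below.

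All 8 genes of the inner kinetochore with CENPA fell, by log2 fold changes from -1.01 to -0.34. The genes with the smallest adjusted p were CENPI, CENPK and CENPN, all of which encode parts of the constitutive centromere network. CENPI (ENSG00000102384, chrX:101098218-101163681) stood at 35.6 and 38.8 CPM in the controls and 20.6 and 20.8 CPM in the knockouts (log2 fold change -0.84, SE 0.079, edgeR adjusted p = 4.27e-11). CENPK (ENSG00000123219, chr5:65517766-65563171) stood at 54.7 and 54.1 CPM in the controls and 33.7 and 34.8 CPM in the knockouts (log2 fold change -0.67, SE 0.064, edgeR adjusted p = 8.83e-11). CENPN, which reads the CENPA nucleosome (ENSG00000166451, chr16:81006498-81033114), stood at 46.5 and 44.3 CPM in the controls and 30.4 and 28.2 CPM in the knockouts (log2 fold change -0.63, SE 0.071, edgeR adjusted p = 2.08e-09). The groups did not overlap in any of them. CENPW, a histone-fold protein that pairs with CENPT, had the largest fall of the role at a low level, 14.3 and 13.7 CPM against 7.18 and 6.72 CPM. CENPA, the histone variant that marks the centromere, changed by -0.70. CENPM (-0.80), CENPU (-0.44) and CENPH (-0.34), further parts of the network, also fell.

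In the outer kinetochore all 8 genes fell. CENPF, a large protein of the outer plate (ENSG00000117724, chr1:214603195-214664588), stood at 301 and 317 CPM in the controls and 146 and 148 CPM in the knockouts (log2 fold change -1.07, SE 0.040, edgeR adjusted p = 1.5e-21). CENPE, a kinesin that carries chromosomes to the metaphase plate (ENSG00000138778, chr4:103105806-103198409), stood at 58.2 and 62.4 CPM in the controls and 31.8 and 34.7 CPM in the knockouts (log2 fold change -0.86, SE 0.066, edgeR adjusted p = 3.95e-13). NUF2, a subunit of the NDC80 complex (ENSG00000143228, chr1:163266576-163355764), stood at 45.8 and 48.9 CPM in the controls and 25.1 and 25.7 CPM in the knockouts (log2 fold change -0.90, SE 0.071, edgeR adjusted p = 8.95e-13). Both knockouts lay below both controls in all of them. The 4 subunits of the NDC80 complex, which act together as 1 rod, had different log2 fold changes: NUF2 had -0.90, NDC80 -0.62, SPC25 -0.62 and SPC24 -0.34. The CPM of NUF2 over that of NDC80 was 2.59 and 2.35 in the controls and 1.95 and 2.10 in the knockouts, and that of SPC25 over SPC24 was 1.72 and 1.66 against 1.39 and 1.40. Neither ratio overlapped between the groups, and neither was tested or set beside the ratios of other pairs of genes. SKA1 (-0.64) and SKA3 (-0.75), of the complex that follows microtubule ends, fell together.

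The chromosomal passenger complex corrects wrong attachments and acts in cytokinesis. All 3 of its listed genes fell without overlap. BIRC5, which encodes survivin (ENSG00000089685, chr17:78214186-78225636), stood at 207 and 196 CPM in the controls and 134 and 134 CPM in the knockouts (log2 fold change -0.58, SE 0.042, edgeR adjusted p = 8.55e-14). CDCA8, which encodes borealin (ENSG00000134690, chr1:37692418-37709719), stood at 44.1 and 42.5 CPM in the controls and 26.8 and 26.99 CPM in the knockouts (log2 fold change -0.69, SE 0.071, edgeR adjusted p = 4.11e-10). INCENP, the scaffold that activates AURKB (ENSG00000149503, chr11:62123973-62153163), stood at 121 and 114 CPM in the controls and 89.3 and 85.8 CPM in the knockouts (log2 fold change -0.42, SE 0.048, edgeR adjusted p = 3.5e-09). Together with AURKB (-0.49) these 4 genes lay between -0.69 and -0.42. The CPM of AURKA over that of AURKB was 2.11 and 2.14 in the controls and 1.66 and 1.70 in the knockouts. This ratio did not overlap between the groups and was not tested.

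Of the 10 motor and spindle genes 9 fell and 1 did not pass the test. KIF20A, a kinesin of the central spindle (ENSG00000112984, chr5:138178719-138187715), had the largest fall of the list and stood at 72.01 and 71.4 CPM in the controls and 30.8 and 31.6 CPM in the knockouts (log2 fold change -1.20, SE 0.061, edgeR adjusted p = 9.11e-18). TPX2, which activates AURKA on spindle microtubules (ENSG00000088325, chr20:31739271-31801805), stood at 280.3 and 292 CPM in the controls and 176 and 169.6 CPM in the knockouts (log2 fold change -0.73, SE 0.039, edgeR adjusted p = 3.86e-17). KIF11, the kinesin-5 that pushes the poles apart (ENSG00000138160, chr10:92593286-92655395), stood at 142 and 165 CPM in the controls and 76.2 and 76.8 CPM in the knockouts (log2 fold change -1.01, SE 0.054, edgeR adjusted p = 6.19e-16). In each the knockout libraries were close to each other and below both controls. KIF4A (-0.78), a chromokinesin, and KIF18A (-0.78), which dampens chromosome movement at the plate, followed. KIF14 (-0.62), a kinesin of cytokinesis, KIF23 (-0.59), HMMR (-0.59), a hyaluronan receptor that also binds spindle microtubules, and the depolymerase KIF2C (-0.59) fell by just over 1.5-fold.

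PRC1, which bundles antiparallel microtubules in the midzone, had the lowest counts of the list. It had 48 to 73 counts a library (ENSG00000198901, chr15:90966038-90995629), and 2.69 and 3.29 CPM in the controls and 3.47 and 2.94 CPM in the knockouts (log2 fold change 0.09, SE 0.227, edgeR adjusted p = 0.749). The groups overlapped, and the fit could not tell a rise from a fall. Of its exon bases, 57.6% lie in exons of AC068831.7, a gene annotated on the same strand, which had 144 and 167 counts in the controls and 217 and 249 in the knockouts and did not pass the test either. Reads from the shared bases can have been counted for either gene or for neither, so the value for PRC1 is uncertain. No other gene of the list had fewer than 149 counts in a library. Of the 60 genes, 23 share exon bases with another gene, 8 of them at least 10%, and 3 share with a gene on the same strand (BUB1B, CENPA and PRC1). No source used here states whether counting used strand.

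The 3 cytokinesis genes fell without overlap. ANLN, the actin-binding anillin of the contractile ring (ENSG00000011426, chr7:36389806-36453791), stood at 235 and 241 CPM in the controls and 135 and 131 CPM in the knockouts (log2 fold change -0.84, SE 0.041, edgeR adjusted p = 2.44e-18). ECT2, the exchange factor that activates RHOA at the equator (ENSG00000114346, chr3:172750682-172821474), stood at 315 and 344 CPM in the controls and 197 and 208 CPM in the knockouts (log2 fold change -0.70, SE 0.041, edgeR adjusted p = 6.01e-16). RACGAP1, a subunit of centralspindlin that binds ECT2 (ENSG00000161800, chr12:49976923-50033136), stood at 151 and 154 CPM in the controls and 103 and 104 CPM in the knockouts (log2 fold change -0.56, SE 0.044, edgeR adjusted p = 7.33e-13). KIF23, the motor subunit of centralspindlin, changed by -0.59, close to RACGAP1.

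All 7 genes of chromosome condensation and surface fell by at least 1.5-fold. TOP2A, the topoisomerase that untangles sister chromatids (ENSG00000131747, chr17:40388516-40417950), stood at 742 and 801 CPM in the controls and 371 and 385 CPM in the knockouts (log2 fold change -1.03, SE 0.037, edgeR adjusted p = 3.52e-22). MKI67, which encodes the Ki-67 surfactant of mitotic chromosomes and marker of proliferation (ENSG00000148773, chr10:128096659-128126385), stood at 523 and 567 CPM in the controls and 281 and 273 CPM in the knockouts (log2 fold change -0.98, SE 0.038, edgeR adjusted p = 4.4e-21). SMC2, a core subunit of both condensins (ENSG00000136824, chr9:104094260-104141417), stood at 149 and 161 CPM in the controls and 84.05 and 83.7 CPM in the knockouts (log2 fold change -0.88, SE 0.047, edgeR adjusted p = 2.99e-17). The knockouts were below the controls in all of these without overlap. SMC2 and SMC4, which form 1 heterodimer, changed by nearly the same amount (-0.88 and -0.89), and the ratio of their CPM overlapped between the groups (1.08 and 1.12 against 1.12 and 1.08). The condensin I subunits NCAPD2, NCAPG and NCAPH lay between -0.69 and -0.61. Of the condensin II subunits, which are not on the list of 60, NCAPD3 (-0.55) and NCAPG2 (-0.41) fell, and NCAPH2 (-0.09) did not pass the test.

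Both transcription factors known to drive this programme fell. FOXM1, a forkhead factor (ENSG00000111206, chr12:2857681-2877155), stood at 102 and 98.4 CPM in the controls and 62.3 and 67.7 CPM in the knockouts (log2 fold change -0.62, SE 0.052, edgeR adjusted p = 3.42e-12). MYBL2, which encodes B-MYB (ENSG00000101057, chr20:43667019-43716496), stood at 84.3 and 74.5 CPM in the controls and 60.6 and 59.5 CPM in the knockouts (log2 fold change -0.40, SE 0.058, edgeR adjusted p = 2.85e-07). Neither overlapped between the groups.

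Levels were compared between genes as mean CPM per kilobase of exon. In the controls they ran from 0.54 (PRC1) to 120 (TOP2A), with CDC25B (118), CCNB1 (96.3), TPX2 (79.4) and UBE2C (72.7) next, and with CDC25C (4.65) the lowest after PRC1. In the knockouts CDC25B stood first at 166, and TOP2A was at 58.7 and CCNB1 at 43.2. Of the 59 pairs of neighbours in the order of control levels, 28 did not overlap between the 2 control libraries, and the other neighbours overlapped and could not be ordered. Across the 60 genes the log2 levels per kilobase in controls and knockouts had a Pearson r of 0.98 and a Spearman rho of 0.97, and the log2 fold change and the log2 control CPM had an r of -0.26 and a rho of -0.28. These are correlations across genes that share libraries and depth, and genes are not replicates.

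**Figure D4:**
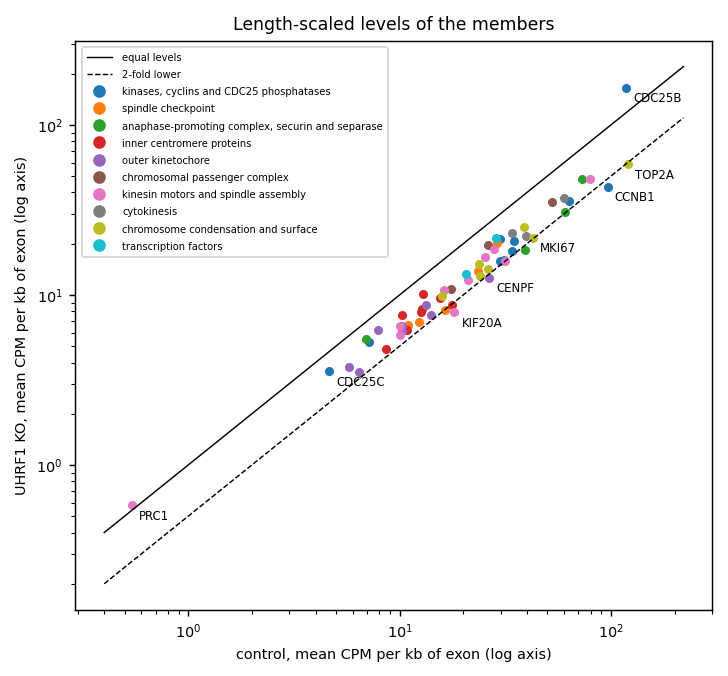
Mean CPM per kilobase of exon in the knockouts (vertical, log axis) against the controls (horizontal, log axis), 1 point per gene, coloured by role, with lines of equal level and of a 2-fold fall. All points but CDC25B and PRC1 lie below the line of equal level, and most lie above the line of a 2-fold fall.

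Another 118 genes with roles in mitosis, listed by function, were read from the same fit. Of these, 90 (76.3%) were lower, 4 were higher and 24 did not pass the test, with a median log2 fold change of -0.45. Over all genes tested 30.1% were lower and 32% higher. Of those within the control CPM range of the 60 genes (2.99 to 772 CPM) 40.6% were lower. These are the shares to set beside each count of these lists. That range was not matched to the control levels of the 118 genes, which ran from 0.93 to 546 CPM. Of 7 genes in a mixed list that holds the cytokinesis genes CEP55, CIT and RHOA beside genes of other roles, 7 were lower (median -0.65). Among them CEP55 changed by -0.63, CIT by -0.76 and DEPDC1 by -0.78. Of 9 other checkpoint genes 8 were lower (median -0.58), among them ZWILCH (-0.70), TRIP13 (-0.64) and SPDL1 (-0.63). Of 25 other motor and spindle genes 21 were lower (median -0.51), and ASPM, a spindle pole protein, fell from 189 and 209.5 to 87.2 and 88.9 CPM (-1.18, SE 0.048, edgeR adjusted p = 1.58e-20). FAM83D (-1.10) and CKAP5 (-0.73) followed. Of 21 other centromere and kinetochore genes 17 were lower (median -0.47), among them HJURP, the chaperone of CENPA (-0.74), KNL1 (-0.68) and SKA2 (-0.60). The scaffold CENPT was higher (0.39, edgeR adjusted p = 0.000292), and had -0.14 with trends of GC content and length removed and the libraries recentred, which is 0.19 above the median of all genes under that scaling.

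For cohesin and the core of the anaphase-promoting complex the medians lay nearer to 0. Of 14 cohesin and condensin II genes 13 were lower (median -0.41), including SMC1A (-0.43) and RAD21 (-0.42). Of 17 genes for subunits and regulators of the anaphase-promoting complex 11 were lower and 6 did not pass (median -0.34). UBE2S (-0.76), ANAPC1 (-0.59) and ANAPC11 (-0.51) had the smallest adjusted p there, while the catalytic cullin ANAPC2 had -0.03 and did not pass. The differences between these lists and the 60 genes were not tested.

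Among 11 other kinases and phosphatase regulators 7 were lower and 1 higher (median -0.48). NEK2, a centrosomal kinase, fell from 61.0 and 60.6 to 28.4 and 29.004 CPM (-1.08), and PBK changed by -0.81. WEE1, which phosphorylates and restrains CDK1, went the other way, from 33.9 and 33.3 CPM in the controls to 55.5 and 55.1 CPM in the knockouts (0.72, SE 0.064, edgeR adjusted p = 1.46e-11). The groups did not overlap. The CPM of CDC25C over that of WEE1 was 1.27 and 1.29 in the controls and 0.620 and 0.570 in the knockouts. Because CDC25C fell and WEE1 rose without overlap, this ratio had to separate the groups. For CDC25B over WEE1 it was 33.4 and 31.5 against 27.4 and 27.9, also without overlap. PKMYT1, the other kinase that places inhibitory phosphates on CDK1, had -0.05 and did not pass. The CPM of CCNB1 over that of CDK1 was 2.82 and 2.71 in the controls and 2.12 and 2.02 in the knockouts. None of these ratios was tested.

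Of the 14 MuvB, DREAM and regulator genes 6 were lower (42.9%, against 40.6% of genes in the control CPM range of the 60), 2 were higher and 6 did not pass (median -0.21). MYBL1 (-0.82) and LIN9 (-0.68), a MuvB subunit, fell, and LIN54, the MuvB subunit that binds the CHR, had -0.04 and did not pass. CDKN1A, which encodes the CDK inhibitor p21, rose by 1.49 on the log2 scale (SE 0.039, edgeR adjusted p = 4.11e-26). The pocket protein RBL1 (p107) fell (-0.29), and RBL2 (p130) rose (0.22, edgeR adjusted p = 0.00222). The rise of RBL2 did not pass without the first knockout library (edgeR adjusted p = 0.140) or in DESeq2 (adjusted p = 0.0975). With the libraries recentred its log2 fold change was -0.04, which is 0.29 above the median of all genes under that scaling.

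**Figure D5:**
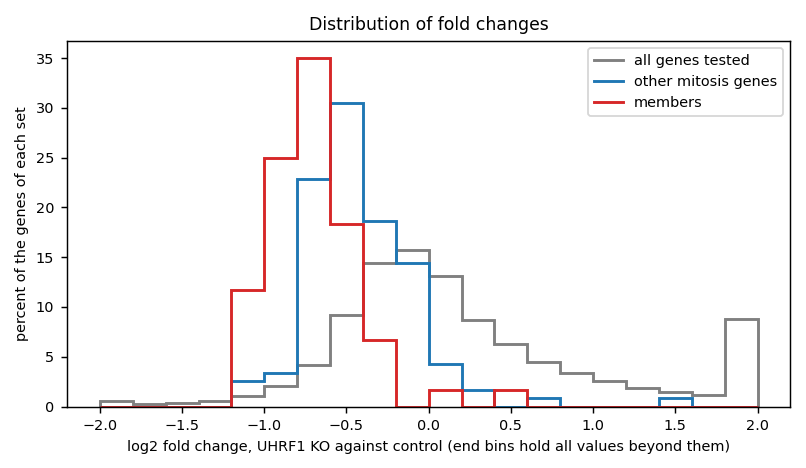
Distribution of log2 fold changes (horizontal axis) as percent of each set (vertical axis) for all 17030 genes tested, the 118 other mitosis genes and the 60 listed genes. The listed genes centre on -0.70, the other mitosis genes on -0.45 and all genes on 0.02, and the end bins hold all values beyond them.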

How the data were processed

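RNA was sequenced from 2 control and 2 UHRF1 knockout libraries of A549 cells. The values are whole-number read counts per gene, deposited by the authors as 1 table for all 4 libraries. Per the submitters' processing notes, FastQC 0.10.1 and GRCh38 were used. No aligner, counter, annotation or use of strand was given in the sources used here. Columns were matched to samples by the group and number in their names. The same short description stands on both control samples, so the numbering of the controls is less certain than their group.

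Identifiers were matched to GENCODE 29 (58735 of 58735). Genes were filtered with filterByExpr, scaled with TMM and tested with the robust quasi-likelihood test of edgeR 4.0.16 in R 4.3.3, two-sided, with Benjamini-Hochberg adjustment over 17030 genes and a threshold of 0.05. SEs are approximate: the size of each log2 fold change divided by the root of its F statistic. The fit has 2 residual degrees of freedom per gene, with spread shared across genes (common biological coefficient of variation 3.16%). Scripts were tested on simulated data.

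Alternatives were DESeq2 1.42.0 (size factors, and its Wald test), upper-quartile factors, other filters, limma 3.58.1 (voom), a replicate block, leaving out each library, stricter thresholds, and removal of GC and length trends with and without recentring. Same-numbered libraries did not deviate together (r = -0.03).

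The 60 genes, their roles, the other mitosis lists, the markers and the promoter words were chosen with earlier results of these data known. Full statistics are given for UHRF1, for the 3 genes of each role with the smallest adjusted p, and for genes that rose or did not pass. Of each other list, the 3 genes with the smallest adjusted p, called genes that went against the list, CDKN1A, RBL1 and RBL2 are named, and 1 gene of these lists is not reported here. Other names, such as ANAPC2, LIN9, LIN54, PKMYT1 and the condensin II genes, were chosen after their values were seen. The genes whose promoters are printed were chosen by the size of their fall, from those with no GENCODE 29 exon base in the stretch.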

Additional observations from a re-analysis of the deposited data

How the results depend on the processing

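Of the 60 genes, 57 kept their direction and their side of the threshold under 13 alternatives. The exceptions were CDC25B, CDC25C and PRC1. The number lower was 58 under each alternative except the DESeq2 Wald test (57) and a required fold of 1.5 (46), and with the replicate block it was also 58. The number higher was 0 with the libraries recentred and 0 with a required fold of 1.5, and that of the other mitosis genes was 2 with the libraries recentred. The log2 fold change of PRC1 was from -0.063 to 0.22 with 1 library left out (-0.063 without control replicate 1, -0.034 without UHRF1 KO replicate 1) and -0.22 with the libraries recentred. With the libraries recentred that of CENPT was -0.14 and that of RBL2 -0.037. These recentred values lay 0.10 (PRC1), 0.19 (CENPT) and 0.29 (RBL2) above the median of all genes under that scaling. In the reported fit these genes lay 0.07 (PRC1), 0.36 (CENPT) and 0.20 (RBL2) above the median of all genes. Recentring moves all genes together, while removal of the trends moves genes by different amounts. The cause of the changes was not tested.

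With the libraries recentred after removal of GC and length trends the median of all genes tested became -0.33, with 9115 lower and 3128 higher in place of 5118 and 5445. The median of the 60 genes then was -0.99, which is -0.67 relative to all genes, against -0.72 in the reported fit. By role it was -1.05 (kinases, cyclins and CDC25), -1.03 (checkpoint), -1.14 (CDC20, UBE2C, securin and separase), -0.96 (inner kinetochore) and -0.92 (outer kinetochore). It was -0.93 (passenger complex), -0.95 (motors), -0.96 (cytokinesis), -1.13 (condensation) and -0.98 (transcription factors). With the trends removed but no recentring the median was -0.63 for all 60, -0.69 (kinases, cyclins and CDC25) and -0.67 (checkpoint). It was -0.60 (inner kinetochore), -0.56 (outer kinetochore), -0.59 (motors), -0.60 (cytokinesis), -0.78 (condensation) and -0.62 (transcription factors). With no filter on low counts it was -0.73 for all 60, -0.81 (checkpoint), -0.71 (inner kinetochore), -0.71 (motors) and -0.73 (cytokinesis). For the checkpoint and the inner kinetochore it was -0.75 and -0.66 with upper-quartile factors. It was -0.75 and -0.66 with a minimum of 1 CPM, and -0.80 and -0.70 in DESeq2.

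Leaving out 1 library gave medians from -0.74 to -0.70 for all 60, -0.81 to -0.77 (kinases, cyclins and CDC25) and -0.82 to -0.78 (checkpoint). They were -0.84 to -0.77 (CDC20, UBE2C, securin and separase), -0.72 to -0.68 (inner kinetochore), -0.79 to -0.69 (outer kinetochore) and -0.65 to -0.56 (passenger complex). They were -0.73 to -0.66 (motors), -0.78 to -0.66 (cytokinesis) and -0.59 to -0.47 (transcription factors). The range was widest for condensation (-0.96 to -0.82). In these fits the lone library of a group is assumed to vary like the other group. Over all genes DESeq2 called 3828 lower and 3845 higher. Depth limits PRC1 most, at 48 to 73 counts a library. Only 2 libraries per group were sequenced, and the samples share only a number, so the block adds no pairing.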
